A study of Rattus norvegicus with 13 samples.

Results

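Of the 26480 sites where a FLAG-tagged myocardin-LSD1 fusion was called in rat aortic smooth muscle cells (SMC), 7012 (26.5%, 95% interval 26.0 to 27.0) overlapped no H3K4me2 peak of any cell line in the study. These 7012 FLAG peaks without H3K4me2 are described here. Peak coordinates are those of build rn6. The peaks were chosen by measured values: each is a peak of the FLAG list that shares not a single base with a peak of the control, Myocd-LSD1 or Myocd-LSD1NF H3K4me2 list. The overlap is therefore a description and carries no test. Intervals on shares are exact (Clopper-Pearson) 95% binomial intervals and cover counting error only.

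CUT&Tag, in which an antibody tethers the transposase Tn5 to chromatin so that DNA beside the epitope is cut and sequenced, was run on 500000 cells per assay. H3K4me2 was mapped in 3 samples each of control, Myocd-LSD1 and Myocd-LSD1NF cells, and FLAG in 4 samples of FLAG-tagged Myocd-LSD1 cells, 13 samples in all. All were rat aortic SMC lines in the same serum-containing growth medium. The labels do not spell out NF, do not give the promoter behind the fusion or whether a line is a single clone, and do not say whether samples of a group were separate cultures. FLAG in cells without the tag was not analysed here, so no background is set beside the FLAG values. Each group had 1 peak list (42672, 42405 and 42727 H3K4me2 peaks in control, Myocd-LSD1 and Myocd-LSD1NF cells), so no value below has replicate error, and read depth per sample is unknown. A base outside all listed peaks may still carry signal under the calling threshold.

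LSD1, encoded by Kdm1a, removes methyl groups from mono- and dimethylated lysine 4 of histone H3 and works in corepressor complexes with CoREST and histone deacetylases. Myocardin, encoded by Myocd, is the coactivator of serum response factor (SRF) that drives the contractile genes of SMC and does not itself read a DNA sequence. H3K4me2 marks active and poised promoters and enhancers, so that sites without it usually lie outside the regulatory DNA in use in a cell.

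A transcription start site (TSS) lay inside 39 of the 7012 peaks. Promoter DNA can be read for some of these genes, and it is shown so that the base composition at such starts can be seen. The 8 sequences were picked by their gap after values were seen. The following are the 250 bases before the RefSeq start in build GRCr8, 5′ to 3′, with CpG dinucleotides in capitals. The peaks at the starts of Igf2r, Rev3l, Zbtb7a and Cdk4 lay closest to an H3K4me2 peak among the matched genes, and those of Spats2l, Rtp2, Ceacam20 and Capn3 lay farthest among matched genes with a symbol.

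Igf2r, chr1:50526628-50526877, plus strand: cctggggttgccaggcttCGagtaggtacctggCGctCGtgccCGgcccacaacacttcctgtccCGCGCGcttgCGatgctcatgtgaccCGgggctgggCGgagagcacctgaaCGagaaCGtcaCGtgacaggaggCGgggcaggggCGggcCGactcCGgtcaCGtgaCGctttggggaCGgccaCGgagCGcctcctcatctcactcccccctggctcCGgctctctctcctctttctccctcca
Rev3l, chr20:44686690-44686939, plus strand: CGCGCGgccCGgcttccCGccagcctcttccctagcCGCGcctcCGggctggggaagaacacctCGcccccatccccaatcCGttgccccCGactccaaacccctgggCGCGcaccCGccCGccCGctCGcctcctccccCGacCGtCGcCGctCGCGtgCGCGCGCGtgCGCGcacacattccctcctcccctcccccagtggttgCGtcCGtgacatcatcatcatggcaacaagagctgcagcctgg
Zbtb7a, chr7:9227253-9227502, minus strand: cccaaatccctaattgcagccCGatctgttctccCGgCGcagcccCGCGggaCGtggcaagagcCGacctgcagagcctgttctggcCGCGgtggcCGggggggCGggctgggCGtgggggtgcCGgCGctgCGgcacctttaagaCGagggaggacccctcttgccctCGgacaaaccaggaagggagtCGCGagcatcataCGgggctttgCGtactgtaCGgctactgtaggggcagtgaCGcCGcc
Cdk4, chr7:64771203-64771452, plus strand: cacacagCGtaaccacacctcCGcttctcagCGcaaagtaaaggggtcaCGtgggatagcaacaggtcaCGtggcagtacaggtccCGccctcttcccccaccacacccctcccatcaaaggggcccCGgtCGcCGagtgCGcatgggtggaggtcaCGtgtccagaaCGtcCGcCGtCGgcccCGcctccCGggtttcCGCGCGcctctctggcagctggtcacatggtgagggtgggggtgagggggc
Spats2l, chr9:66888898-66889147, plus strand: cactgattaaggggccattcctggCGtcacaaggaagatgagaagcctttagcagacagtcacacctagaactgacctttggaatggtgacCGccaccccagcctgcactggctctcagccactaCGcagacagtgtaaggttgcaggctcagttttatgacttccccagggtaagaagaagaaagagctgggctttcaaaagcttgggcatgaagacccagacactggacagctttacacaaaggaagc
Rtp2, chr11:90422303-90422552, plus strand: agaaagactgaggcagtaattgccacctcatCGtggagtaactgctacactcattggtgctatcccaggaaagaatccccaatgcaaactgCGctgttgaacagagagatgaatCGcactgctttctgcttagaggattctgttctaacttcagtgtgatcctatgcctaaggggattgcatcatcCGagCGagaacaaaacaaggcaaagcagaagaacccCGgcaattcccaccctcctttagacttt
Ceacam20, chr1:88749760-88750009, plus strand: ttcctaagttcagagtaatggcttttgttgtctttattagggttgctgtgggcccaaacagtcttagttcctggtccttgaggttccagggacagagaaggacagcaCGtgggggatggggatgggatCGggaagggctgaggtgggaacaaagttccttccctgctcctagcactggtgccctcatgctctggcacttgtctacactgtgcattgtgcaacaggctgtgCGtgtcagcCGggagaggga
Capn3, chr3:127861340-127861589, plus strand: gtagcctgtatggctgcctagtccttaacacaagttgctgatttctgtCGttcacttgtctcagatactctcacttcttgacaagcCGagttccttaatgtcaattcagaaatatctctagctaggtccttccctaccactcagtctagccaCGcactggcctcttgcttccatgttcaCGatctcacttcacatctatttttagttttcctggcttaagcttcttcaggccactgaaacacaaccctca

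The first 4 sequences held 20 to 31 CpGs and the last 4 held 3 to 6, but the other matched promoters did not all follow their gaps. Spsb1, 386 bp from the mark, had 6 CpGs, whereas Carhsp1 at 1.35 kb had 24 and Gas8 at 1.76 kb had 16. CpG observed over expected, which is the CpG count divided by that expected from the C and G content, was 0.800 for Igf2r (a receptor that carries insulin-like growth factor 2 to lysosomes), 1.06 for Rev3l (catalytic subunit of DNA polymerase zeta), 0.836 for Zbtb7a (a zinc finger repressor) and 0.719 for Cdk4 (a kinase of G1 progression). Their peaks lay 203, 223, 243 and 283 bp from H3K4me2. The ratio was 0.180 for Spats2l, 0.433 for Rtp2, which helps chemosensory receptors to the cell surface, 0.227 for Ceacam20, a cell adhesion molecule, and 0.351 for Capn3, the calpain of skeletal muscle. Their peaks lay 3.94, 6.50, 13.3 and 31.8 kb from H3K4me2. Promoters were matched for 19 of 38 genes with a start inside a peak on autosomes and X (50%), too few for a valid statement on the set, so these values stand for the named promoters. The RefSeq start of GRCr8 may also differ from the start used by the authors in rn6.

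Of the short motifs searched on both strands, the GC box GGGCGG was in the 4 sequences of Igf2r, Rev3l, Zbtb7a and Cdk4 and in none of the other 4, against 33.6% of all 24206 promoters in the RefSeq table. At starts in FLAG peaks of all 3 H3K4me2 lists it was in 65.4%. The other matched promoters were mixed. Within 1 kb of the mark, Snx18, Nsd1 and Morf4l1 had it and LOC102554669, Spsb1 and Fat1 did not. Farther away, Meltf, Carhsp1 and Gas8 had it and Btbd17 and LOC102547008 did not. Among the 8 printed sequences, the E-box CACGTG was in those of Igf2r, Cdk4 and Ceacam20, against 5.86% of all promoters. The CArG box to which SRF binds (CC, then 6 bases of A or T, then GG) was in none of the 8 sequences, against 1.51% of all promoters, and TATAAA was in none of them, against 13.3%. Neither absence says anything about binding of a factor. Sequence under the peaks themselves was not analysed here.

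FLAG peaks without H3K4me2 had lower scores, lower folds and smaller widths than the other FLAG peaks, by their medians. The authors' score, 10 times the -log10 q-value, had a median of 26 (quartiles 21 and 41) without H3K4me2. It was 35 for the 1649 FLAG peaks overlapping a single H3K4me2 list, 36 for the 1738 overlapping 2 and 60 for the 16081 overlapping all 3. Median width was 250 bp without H3K4me2 and 279, 285 and 433 bp with 1, 2 and 3 lists, and median fold enrichment over background was 4.19 against 4.66, 4.80 and 5.82. With the FLAG list cut into 4 bins of nearly equal size by score, from lowest to highest, peaks without H3K4me2 made up 54.2% (3630 of 6703), 28.4%, 15.9% and 7.08% (465 of 6572) of the FLAG peaks.

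**Figure D1:**
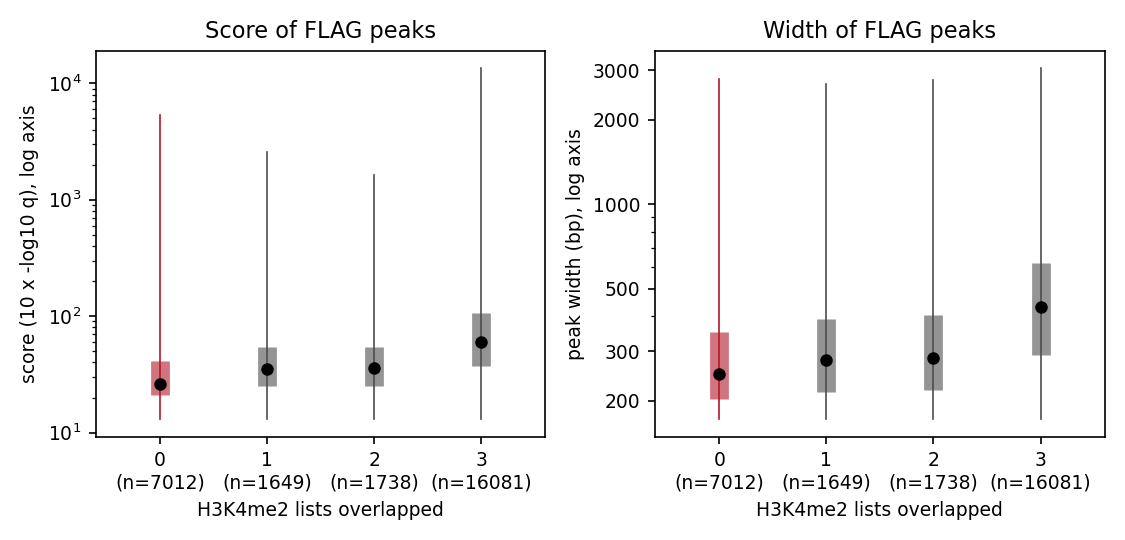
Score and width of the FLAG peaks (log axes) by the number of H3K4me2 lists they overlap. Points are medians, thick bars run between the quartiles and thin lines from the lowest to the highest peak; peaks without H3K4me2 (0 lists, red) had the lowest medians, 26 and 250 bp, while their highest score reached 5353.

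Many of the weak peaks shared a small set of fold values. The value 4.19 was held by 789 of the 7012 peaks (11.3%) and 3.49 by 714 (10.2%), followed by 4.89 (348 peaks) and 5.59 (117 peaks). These 4 values are evenly spaced, 0.698 apart. Multiples of that step, within 0.0005, accounted for 29.6% of peaks without H3K4me2 (28.5 to 30.7) and 5.67% of the other FLAG peaks (5.35 to 6.0). The step was taken from the most common values of the peaks without H3K4me2 themselves. Nor were the sets matched on fold, which was lower without H3K4me2, so these shares are a description only. How many reads a step stands for is not given in the sources used here.

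These peaks lay mostly between genes and in introns. Distal intergenic sequence held 45.1% of peaks without H3K4me2 (43.9 to 46.2), introns 37.2% (36.0 to 38.3), promoters within 3 kb of a TSS 10.5% (9.76 to 11.2) and exons 4.73%. Among FLAG peaks in all 3 H3K4me2 lists, promoters held 57.9% (57.1 to 58.7), distal intergenic sequence 19.1% and introns 18.9%. The median distance to the nearest TSS was 22.2 kb against 0.653 kb, and 14.2% against 2.83% lay more than 100 kb from one. A TSS lay inside 0.556% of peaks without H3K4me2 (39 peaks) and inside 35.4% of those in all 3 lists (5686 peaks). The 1649 FLAG peaks overlapping a single H3K4me2 list were placed much like the peaks without it. Promoters held 13.8% of them (12.1 to 15.5), distal intergenic sequence 39.8% and introns 39.1%. Their median distance to a TSS was 18.1 kb, 10.2% lay more than 100 kb from one, and a TSS lay inside 1.94%.

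**Figure D2:**
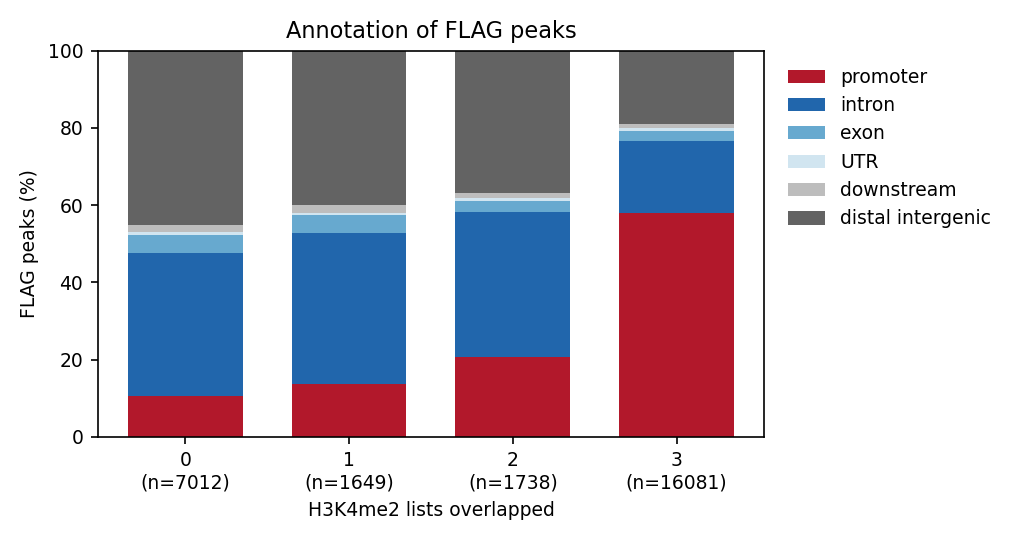
Annotation of FLAG peaks as stacked shares in percent, by the number of H3K4me2 lists overlapped. Promoters (red, bottom) made up 10.5% of peaks without H3K4me2, 13.8% of those in 1 list and 57.9% of those in all 3 lists. Distal intergenic sequence (dark grey, top) made up 45.1%, 39.8% and 19.1%.

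The promoter share was low at every score. Across the 4 score bins, promoters held 9.94%, 10.8%, 11.1% and 11.6% of the peaks without H3K4me2, with overlapping intervals. In the FLAG peaks with H3K4me2 the promoter share was 35.8%, 41.6%, 48.9% and 67.2% in the same bins. The distal intergenic share of peaks without H3K4me2 was 43.4% in the lowest and 56.6% in the highest bin, against 28.5% and 16.7% with H3K4me2. Read the other way, 0.668% of FLAG peaks on a TSS, 8.26% of those up to 1 kb away and 27.9% of those farther but within 3 kb had no H3K4me2. Beyond 100 kb from a TSS the share was 56.9% (993 of 1745 peaks). Because H3K4me2 marks promoters, choosing peaks without it leaves out many promoter peaks. The shares by location, at every score, are therefore a description only.

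Most of the sites were well separated from the mark. The median gap to the nearest H3K4me2 peak of any list was 13.5 kb (quartiles 5.03 and 38.9 kb), and 18.1, 18.2 and 18.4 kb to the nearest peak of the control, Myocd-LSD1 and Myocd-LSD1NF list. Gaps under 1 kb were found for 523 peaks (7.46%), gaps of 100 kb or more for 845 (12.1%), and 22 peaks lay on sequences with no H3K4me2 peak. Promoters held 26.2% of the peaks within 1 kb of the mark and 4.14% of those at 100 kb or more, while distal intergenic sequence held 37.1% and 73.5%. Peak strength was similar across gaps, the median score being 29 within 1 kb and 25 at 100 kb or more. Median fold was 4.16 and 4.19 and median width 245 and 247 bp.

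**Figure D3:**
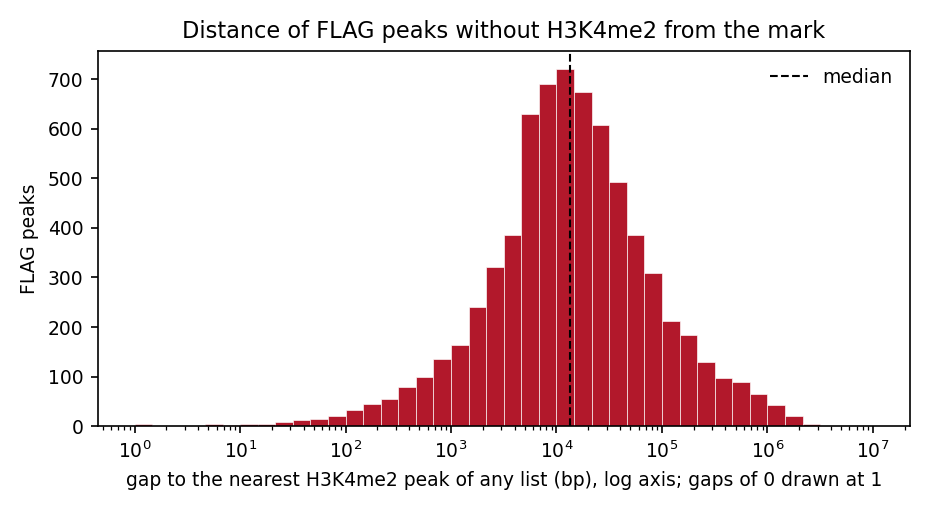
Gap in bp (log axis) from each FLAG peak without H3K4me2 to the nearest H3K4me2 peak of any list, as the number of FLAG peaks per bin. The median (dashed) is 13.5 kb, and 523 peaks lie within 1 kb.

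Peaks on both sides of the selection limit had like scores. The peaks just inside it were those near Myl10 and Aebp2, which touched an H3K4me2 peak with a gap of 0 bp and scored 39 and 38, and RGD1562037 with a gap of 1 bp and a score of 15. Just outside lay peaks at Nlrp3 (the inflammasome sensor, score 50) and Wdr7 (score 15), sharing 1 bp with an H3K4me2 peak, and LOC102548193 (score 15), sharing 2 bp.

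A few sites without H3K4me2 were among the FLAG peaks of highest fold. Fold enrichment reached 20 or more at 41 FLAG peaks, of which 13 had no H3K4me2 (31.7%, 18.1 to 48.1). That interval held the 26.5% over all FLAG peaks. The share was 51.6% at folds under 4, 37.3% at 4 to 5 and 16.2% at 5 to 7. It was 6.78% at folds of 7 to 10, 5.92% at 10 to 15 and 9.71% at 15 to 20. These 13 peaks were narrow, with a median width of 213 bp against 464.5 bp for the 28 marked peaks of that fold, and none of the 13 lay in a promoter. The highest fold of the 13, 35.4, was at chr17:57193893-57194539, 647 bp wide and 119 kb from the start of Crem, a cAMP-responsive transcriptional modulator. Its score was 2389 and the nearest H3K4me2 peak lay 100.3 kb away. A 177 bp peak in intron 2 of Cacna2d3, an auxiliary calcium channel subunit (chr16:5673449-5673625), had a fold of 28.6 and a score of 2218, 123 kb from the mark.

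The highest score among FLAG peaks without H3K4me2, 5353, belonged to a 213 bp peak at chr1:36361177-36361389 with a fold of 26.9, at -38.7 kb from the start of Papd7, a non-canonical poly(A) polymerase (negative distances are upstream). The second, 4267, was a 395 bp peak at chr11:90463448-90463842 with a fold of 23.6, at -56.7 kb from Snai2. Snai2 encodes Slug, a repressor of the Snail family that recruits LSD1. A further peak at -52.5 kb from Snai2 scored 108, and both lay 2.53 to 6.78 kb from H3K4me2. Other narrow peaks of high score were those of Intu, a planar polarity effector needed for cilia (score 1930, fold 27.7), Ssbp2 intron 1 (1810, 23.6) and Map2k6 intron 1, the kinase gene upstream of p38 (1564, 24.9). The other peaks with a fold of 20 or more lay nearest to LOC102553441, the olfactory receptor gene Olr754, Tmx3, Stxbp4, LOC103690932 and RGD1562638, with scores of 544 to 920.

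High scores also occurred at wide peaks of low fold. Of the 39 peaks without H3K4me2 that scored 500 or more, 14 had a fold of 10 or more and a median width of 210.5 bp, and 25 had folds of 2.28 to 9.25 and a median width of 753 bp. Of these 25, 20 lay in the 10 runs with the most members, a run being a chain of FLAG peaks without H3K4me2 less than 10 kb apart. The third-highest score, 3371, was such a peak, 897 bp wide with a fold of 9.25, near LOC102547740 at chr19:5836238-5837134. LOC257642 on chromosome 6 (score 1774, fold 6.37) and a pair of peaks at LOC108351097 on chromosome 5 (1683 and 1652) were others among the 10 highest scores.

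**Figure D4:**
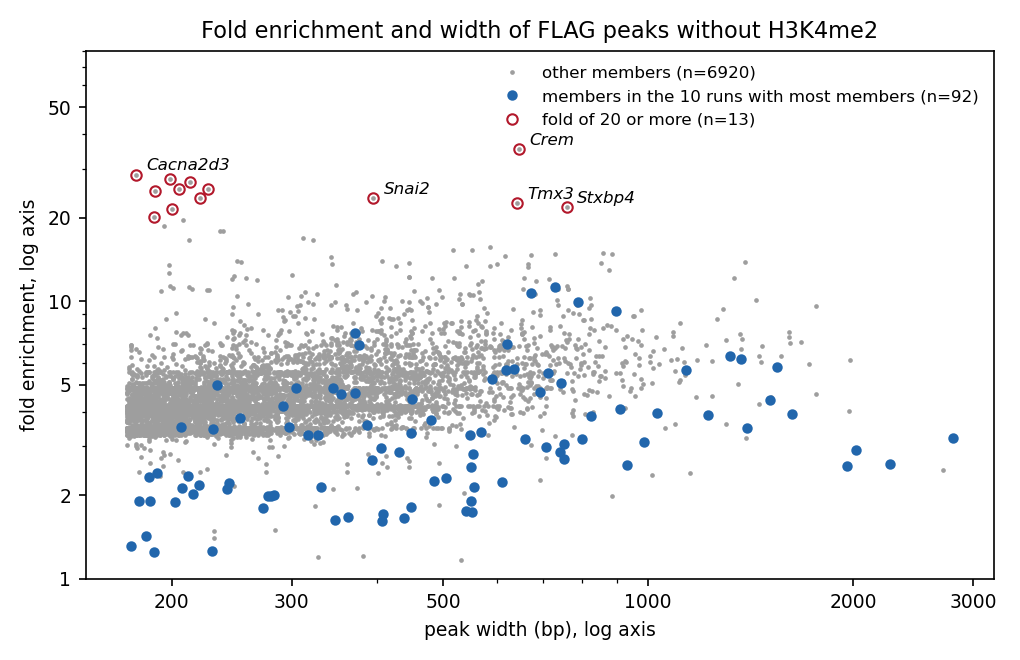
Fold enrichment against width in bp for every FLAG peak without H3K4me2 (both axes log). The 13 peaks with a fold of 20 or more (red rings) are mostly near 200 bp wide, whereas the 92 peaks in the 10 runs with the most members (blue) spread down to a fold of 1.25 and up to a width of 2800 bp.

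The longest run carried the ribosomal RNA genes. On chromosome 14, between 46609161 and 46661839, 20 of 25 FLAG peaks had no H3K4me2 within a stretch of 52.7 kb. They were annotated to LOC102554740 and to Rn45s, Rn18s and Rn28s, the genes of the ribosomal RNA precursor and its products. The Rn45s peak, 45 bp from the start, was 2266 bp wide with a score of 866 and a fold of 2.59, and at Rn28s scores reached 555. A second run of 11 peaks lay at 46517626 to 46564166 of the same chromosome. Other runs held 13 peaks on chromosome 1 (11939587 to 11975043), 9 on chromosome 6 (31047245 to 31070974), 8 on chromosome 19 (5813750 to 5837134) and 7 on chromosome 5 (91125028 to 91140956), all annotated to genes with LOC names. In these 6 runs the smallest gap to an H3K4me2 peak was 212 to 864 bp. Ribosomal RNA genes occur in many near-identical copies. How reads from repeated sequence were placed is not given in the sources used here, so the copy and the level at these loci are uncertain.

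In all, 1008 peaks (14.4%) stood in 412 runs of at least 2 and 6004 stood alone. By 1 Mb window, chromosome 14 from 46 to 47 Mb held 40 (of 61 FLAG peaks), and the windows on chromosome 1 from 180 to 181 and 181 to 182 Mb held 37 of 78 and 36 of 67. In chromosome 9 from 12 to 13 Mb, 29 of 32 FLAG peaks had no H3K4me2, and in chromosome 14 from 94 to 95 Mb 20 of 21. The share over all FLAG peaks was 26.5%. These windows were picked for their high counts from 2375 with a FLAG peak on autosomes and X. Of those, 1983 held a peak without H3K4me2, with a median of 3 such peaks. Among whole chromosomes the share ran from 20.8% on chromosome 10 (19.0 to 22.6) to 33.5% on chromosome 15 (30.3 to 36.8), with 24.5% on X. On Y and unplaced Y sequences 31 of 40 FLAG peaks (77.5%) had none.

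By nearest gene, the 7012 peaks belonged to 5230 genes, of which 2570 had no other FLAG peak and 4143 had a single peak without H3K4me2. LOC501266 on chromosome 1 held most, 61 of its 128 FLAG peaks, over 1086 kb. LOC108350034 followed with 27 of 27, Ythdc2, an RNA helicase of the meiotic programme, with 16 of 21, LOC100910917 with 14 of 41, LOC103690742 with 13 of 14 and LOC108352752 with 11 of 16. LOC102547740, LOC102554740, LOC108349491 and LOC102546709 held 10 each. Genes known only by a LOC, RGD or similar name held 2845 of the 7012 peaks. That was 38.5% of their 7381 FLAG peaks (37.4 to 39.7), against 26.5% over all FLAG peaks. Counted beyond 3 kb of a TSS, it was 43.9% (42.6 to 45.2), against 39.6% over all FLAG peaks at that distance. Among other genes with a symbol, 9 peaks each lay nearest to Shox2, a homeobox gene, Sel1l2, Zar1l and Ssty1, and 8 to Ctss. Zfp326, Dock9 and Lpp, a LIM protein of SMC adhesion sites, held 7 each. The median distance of the peaks from the start was 738 kb at Shox2, 385 kb at Sel1l2 and 13.2 kb at Lpp. At Shox2 the closest H3K4me2 peak was 219 kb from any of its 9 peaks.

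The genes beside these sites were then checked for the mark at their own promoters. Of the 6278 peaks more than 3 kb from a TSS, 47.8% (46.6 to 49.1) were nearest to a gene with a Myocd-LSD1 H3K4me2 peak within 3 kb of a start. For the 9573 FLAG peaks with H3K4me2 beyond that distance it was 62.4% (61.4 to 63.4). With any of the 3 lists counted the shares were 53.1% and 67.2%. The promoter mark comes from the same H3K4me2 lists by which the peaks were chosen. These shares are therefore a description only.

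The peaks were then grouped by lists of genes, taking the nearest gene in the authors' annotation; a number in parentheses after a gene is the score of its highest peak without H3K4me2. Contractile genes of SMC held 21 of these sites among 92 FLAG peaks (22.8%, 14.7 to 32.8), near the 26.5% over all FLAG peaks. Of 40 genes on the list, 37 had promoter H3K4me2 in at least 1 line and 12 had a FLAG peak without it, 20 of the 21 lying beyond 3 kb of a TSS. Counted beyond 3 kb alone, the share was 36.4% (20 of 55) against 39.6% over all FLAG peaks. Mylk, the myosin light chain kinase, held 4, in introns 1, 21 and 22, the highest with a score of 103 and a fold of 7.04 at chr11:69049518-69049937. Lmo7, an actin-binding LIM protein, held 6 with scores of 16 to 40. The peak nearest to Tln1 (talin, which links integrins to actin) scored 87. It was annotated as exonic but lay at -7.32 kb, upstream of the Tln1 start. The Cald1 (caldesmon) peak, at -2.35 kb, scored 40. Synpo2 held 2, and Actg2, Kcnmb1, Ldb3, Lmod1, Pdlim3, Pdlim5 and Pgm5 held 1 each, with scores of 15 to 37. Acta2 and Tagln, which encode smooth muscle actin and transgelin, had FLAG peaks in promoters that all overlapped H3K4me2, and Cnn1 and Myh11 had no FLAG peak.

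Regulators of SMC identity held 15 sites without H3K4me2 among 101 FLAG peaks (14.9%, 8.56 to 23.3), none in a promoter. Beyond 3 kb of a TSS their share was 22.4% (15 of 67, 13.1 to 34.2), an interval under the 39.6% over all FLAG peaks. Smad3, a transducer of TGF-beta signals, held 3 with scores of 22 to 39, and Mkl1, a myocardin relative that shuttles with actin, held 2 with scores of 55 and 42. The Notch effector gene Hey1 had 1 peak, 1007 bp wide, at -92.0 kb with a score of 55, and Hey2 had 1 with a score of 27. Klf4, Mkl2, Prkg1, Smad2, Srf, Tbx18, Tead1 and Tgfbr1 held 1 each with scores of 15 to 25. Myocd itself had a promoter FLAG peak that overlapped H3K4me2.

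The list of LSD1 partners held 8 of 40 (20%, 9.05 to 35.6). Besides the pair near Snai2, Gfi1b, a repressor that binds LSD1 through its SNAG domain, held 2 with scores of 28 and 32, the latter 132 bp from its start. Chd4, the remodeller of the NuRD complex, also held 2 (44 and 25), and the CoREST family gene Rcor3 held 1 (23). The FLAG peak at the start of Kdm1a overlapped H3K4me2. Writers and erasers of H3K4 methylation held 12 of 36 (33.3%), led by Rbbp5, a core subunit of the methyltransferase complexes (91), Smyd2 (86), the demethylase gene Kdm5b (38) and Kmt2e (35).

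Counted over all their FLAG peaks, housekeeping, histone and immediate early genes had the lowest shares of the 26 lists, and many of those peaks lay in promoters. Housekeeping genes held 2 of 34 (5.88%, 0.720 to 19.7), histone genes 3 of 45 (6.67%), immediate early genes 4 of 50 (8%, 2.22 to 19.2) and cell cycle genes 5 of 38 (13.2%). Counted beyond 3 kb of a TSS, against 39.6% over all FLAG peaks, the shares were 14.3% for housekeeping (2 of 14), 27.3% for histone (3 of 11), 10.5% for immediate early (2 of 19) and 25% for cell cycle genes (4 of 16). The interval of the immediate early genes (1.30 to 33.1) lay under 39.6%. Those of housekeeping (1.78 to 42.8), histone (6.02 to 61.0) and cell cycle genes (7.27 to 52.4) held that value. A 303 bp peak 129 bp from the start of Myc scored 114 and lay 291 bp from H3K4me2, and one at -0.593 kb from Fosl2 scored 56. Matrix genes held 13 of 72 (18.1%), with Thbs1 (thrombospondin 1) highest at 181, followed by the fibulins Fbln2 (67) and Fbln5 (37) and by Col6a1 (37). Beyond 3 kb the matrix share was 24.1% (13 of 54, 13.5 to 37.6), an interval under 39.6%. Collagen genes held 15 of 67 (22.4%), led by Col14a1 (51). Osteogenic and chondrogenic genes held 12 of 40 (30.0%), led by Bmp4 (68), Sox5 (67), Sp7 (65) and Sox9 (53), and none of the 12 lay in a promoter. Some were nearest to these genes only at long range. The Bmp4 and Sox5 peaks lay at -734 and -129 kb from the start, and those of Sp7 and Sox9 at -21.3 and 10.0 kb.

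Chemosensory receptor genes and large synaptic genes had the highest shares of the 26 lists. Vomeronasal and taste receptor genes held 12 of 15 (80%, 51.9 to 95.7), olfactory receptor genes 32 of 46 (69.6%, 54.2 to 82.3) and large synaptic genes 22 of 31 (71.0%, 52.0 to 85.8), all with intervals above 26.5%. Counted beyond 3 kb of a TSS, where the share over all FLAG peaks is 39.6%, these were 78.6%, 66.7% and 73.3%. Olr754 (741) and Olr226 (281) led the olfactory genes, and the splicing regulator gene Rbfox1 (159, intron 1) led the synaptic ones. The neural peaks had a median gap of 196 kb from H3K4me2 and the olfactory ones of 73.9 kb. Cadherins and protocadherins held 16 of 34 (47.1%, 29.8 to 64.9), led by Cdh13 (94), and potassium channel genes 26 of 69 (37.7%, 26.3 to 50.2), led by Kcnh8 (137). Beyond 3 kb the cadherin share was 56% (34.9 to 75.6) and the potassium channel share 44.7% (30.2 to 59.9), both with intervals that held 39.6%.

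Among marker genes of other cells of the vessel wall, endothelial genes held 8 of 13 (61.5%, 31.6 to 86.1). Beyond 3 kb of a TSS the endothelial share was 72.7% (8 of 11, 39.0 to 94.0), an interval that held the 39.6% over all FLAG peaks. Tie1 (35), Cdh5 (34), Emcn (25) and Pecam1 (23) led, and 5 of the 15 endothelial genes had promoter H3K4me2 in any line. Fibroblast and adventitial genes held 4 of 14 (28.6%), led by Serpinf1 (257), macrophage and leukocyte genes 3 of 9 (33.3%), and skeletal and cardiac muscle genes 4 of 11 (36.4%), led by the ryanodine receptor gene Ryr2 (118). HOX genes held 4 of 16 (25%), microRNA genes 42 of 151 (27.8%), cytochrome P450 and UGT genes 13 of 45 (28.9%), zinc finger genes named Zfp or Znf 60 of 288 (20.8%) and ribosomal protein genes 22 of 110 (20%). The interval of the zinc finger genes (16.3 to 26.0) lay under 26.5%, as did that of the SMC regulators, while those of the fibroblast, macrophage, striated muscle, HOX, microRNA, cytochrome, ribosomal, matrix, collagen, cell cycle, LSD1 partner, contractile and osteogenic genes and of H3K4 enzymes held that value. Beyond 3 kb the zinc finger genes were at 47.9% (56 of 117, 38.5 to 57.3) and the ribosomal protein genes at 43.5% (20 of 46), above the 39.6% over all FLAG peaks at that distance, so that their side of the overall share turned, though the interval of the zinc finger genes held 39.6%. Promoters held 171 of the 288 zinc finger peaks. The lists were not tested against each other.

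**Figure D5:**
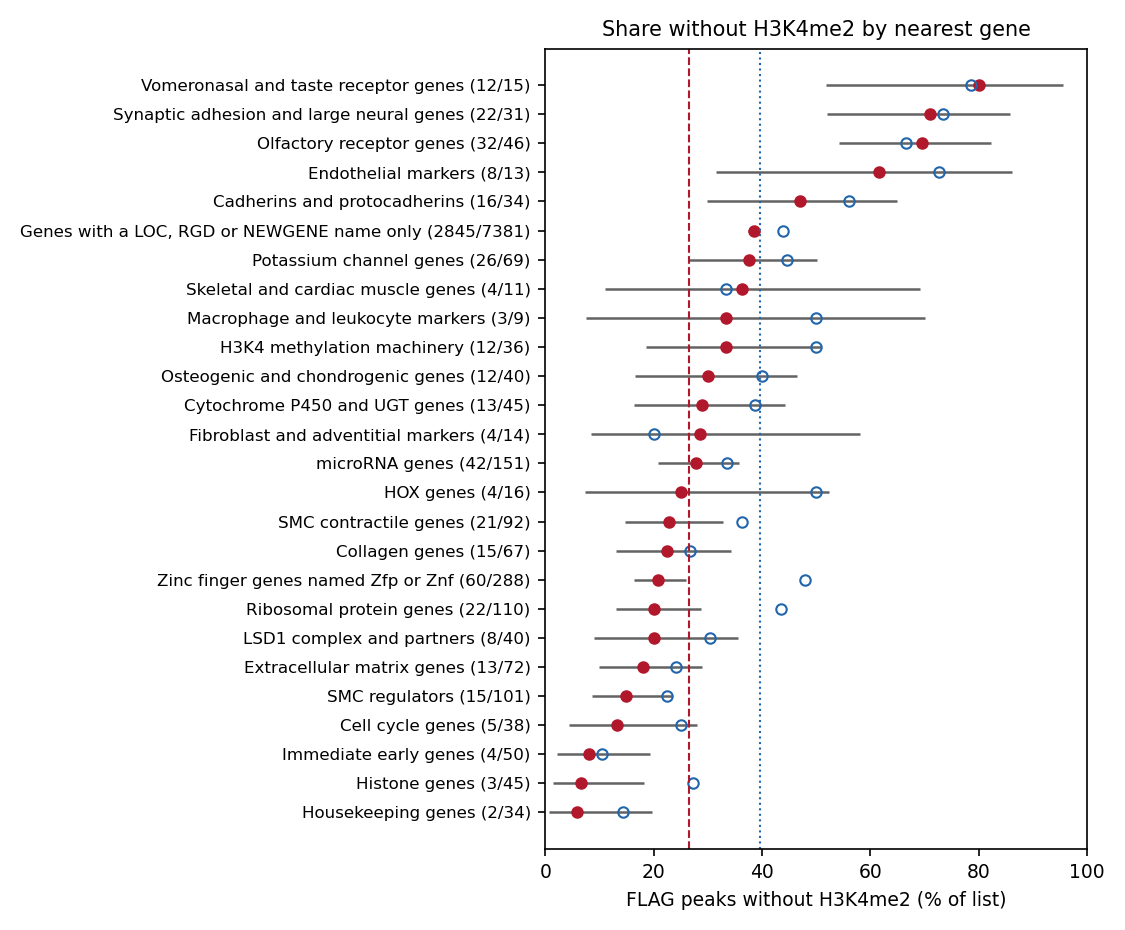
Share of the FLAG peaks nearest to each gene list that had no H3K4me2, in percent, with exact 95% intervals that cover counting error; the counts stand beside the names and the dashed line is the 26.5% of all FLAG peaks. Open blue circles give the share among peaks beyond 3 kb of a TSS, and the dotted line its value over all FLAG peaks, 39.6%. Receptor and synaptic genes lie to the right, between 69.6% and 80%, and housekeeping, histone and immediate early genes to the left, between 5.88% and 8%, with histone genes at 27.3% beyond 3 kb.

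Promoter peaks without H3K4me2 numbered 734. The highest at a gene with a symbol was Rn45s, followed by Hspa12b, an HSP70 relative (score 321, at -1.38 kb), Aloxe3, a lipoxygenase of the epidermis (318, -0.862 kb), and Serpinf1, which encodes an antiangiogenic serpin (257, 2.93 kb). Zbtb7a came next (220), with its start inside an 822 bp peak at chr7:11443449-11444270 in rn6, and its CpG-rich promoter is printed above. The others among the 10 highest were a pair at Rn28s (186 and 138), Wfdc6b (170), the growth hormone gene Gh1 (133) and Fryl (117). Wfdc6b, Gh1 and Hspa12b lay 14.0 to 52.9 kb from H3K4me2, and Zbtb7a, Aloxe3, Fryl and Serpinf1 less than 1 kb from it.

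The authors' deposited table of H3K4me2 sites that differed between Myocd-LSD1 and Myocd-LSD1NF touched 3 of the 7012 peaks (0.0428%). In the authors' deposited table a site lower in Myocd-LSD1 overlapped 1 of them, against 1.91% of all FLAG peaks, and a site higher in Myocd-LSD1 overlapped 2, against 3.81%. Since the peaks were chosen for having no H3K4me2 peak, nothing is read from these counts. The site in intron 9 of Syt3, a synaptotagmin gene, had a log2 difference of -2.65 in the authors' deposited table, from log2 concentrations of 1.13 and 3.77, at an FDR of 0.0226. The sites at Tenm4, a teneurin, and Wwp2, a ubiquitin ligase, had differences of 3.02 and 4.37, with FDRs of 0.0245 and 1.79e-05 as the authors' deposited table lists them. All 3 FLAG peaks lay within 160 bp of an H3K4me2 peak. Within 10 kb, sites of the authors' deposited table lay near 372 of the peaks (5.31%, 4.79 to 5.86), 153 lower and 219 higher, and near 15% of the FLAG peaks with H3K4me2.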

How the data were processed

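Values came from 4 peak lists and a table of differential sites that the authors deposited, in the columns MACS2, ChIPseeker and DiffBind write, per the file headers. The build named is rn6 and the tools are Bowtie2, MACS2, ChIPseeker, deepTools and DiffBind, without versions, settings or roles, per the submitters' processing notes. All peak names of a list carry 1 alignment name, and whether samples were pooled is not stated. The score deposited for a peak equals its -log10 q-value times 10, cut to a whole number (checked on the values). Fold, also deposited, is enrichment over background. The authors' -log10 q-values correspond to q-values of at most 0.05. The authors' deposited table gives log2 concentrations, their log2 difference (Myocd-LSD1 minus Myocd-LSD1NF), a p-value and an FDR. Depth per sample is unknown.

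Starts were turned to 1-based counting and overlaps of at least 1 bp were counted under Python 3.11.15 with pandas 2.3.3, scipy 1.17.1 and numpy 2.4.6; plots used matplotlib 3.10.9. On 20 simulated lists of 10000 intervals in all, the overlap code was right for 100%. Shares carry exact 95% intervals. With 1 list per group no test was possible.

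The peaks and the 26 gene lists were chosen with earlier results of these data known. The fixed naming rule takes the 10 highest peaks by score, the 10 highest promoter peaks with a symbol, the 10 genes with most peaks, up to 4 genes per list, all contractile, regulator and LSD1 partner genes, 6 looked-up genes, peaks on differential sites and the 3 nearest either side of the selection limit, on autosomes and X. Thresholds on fold and score, runs, windows, fold steps, the printed promoters other than Zbtb7a, and genes outside the rule were chosen after values were seen. A few genes within the rule are not reported here. The pattern for ribosomal protein genes also takes Rps6k kinases. Sequences are from RefSeq (GRCr8).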

Additional observations from a re-analysis of the deposited data

How the results depend on the processing

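No paired analysis was possible because each group has 1 list with no values per sample, which also kept single replicates from being left out. The number, share, promoter share, score, fold and differential-site share of the peaks were recomputed. The count of 7012 became 1522 (11.5% of the peaks) in the 50% of FLAG peaks with the highest score and 11056 (41.8%) against the 50% of each H3K4me2 list with the strongest q-values. The share of 26.5% became 28.5% where H3K4me2 had to cover at least 50% of a FLAG peak, 24.5% with H3K4me2 peaks widened by 1 kb, 31.0% with the Myocd-LSD1 list alone, and 27.6%, 29.7% and 28.4% with the control, Myocd-LSD1 and Myocd-LSD1NF list left out. The promoter share of 10.5% became 11.3% (cover), 9.20% (widened), 11.2% (highest FLAG scores), 12.3% (strongest H3K4me2) and 4.41% (1 kb promoters). The median score of 26 became 64 and 31 for highest FLAG scores and strongest H3K4me2, and 28 with the Myocd-LSD1 list alone or left out. The median fold of 4.19 became 6.11, 4.42 and, with that list alone, 4.20. The share at differential sites of the authors' deposited table, 0.0428%, became 5.31% within 10 kb. Counting only peaks beyond 3 kb of a TSS, an alternative added after seeing the data, 7 of 26 gene lists changed side of the share over all FLAG peaks (26.5%, or 39.6% beyond 3 kb): zinc finger (47.9%), ribosomal protein (43.5%) and HOX genes (50%) from below to above, and fibroblast (20%), striated muscle (33.3%), microRNA (33.6%) and cytochrome genes (38.7%) from above to below; the cause was not tested. Fewer peaks in either list by construction shift the values under those thresholds. Other alternatives, autosomes and X alone included, left the count within 1.5 times and the shares and medians within their 95% intervals. Unknown depth, unstated pooling and the lack of a FLAG background here limit every count.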
